A study of Homo sapiens with 4 samples.

Results

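The genes described here are 10 histone acetyltransferase genes, CREBBP, EP300, KAT2A, KAT2B, HAT1, KAT5, KAT6A, KAT6B, KAT7 and KAT8, out of 20037 protein-coding genes in the RefSeq table of GRCh38.p14. They were listed by name, and every peak from 5 kb before to 5 kb past each gene was taken. The data are CUT&Tag of CHAF1A, the largest protein of the chaperone complex CAF-1 that loads histones onto newly copied DNA, in RBE, an established cell line of intrahepatic cholangiocarcinoma. By lipid transfection 2 samples of these cells were given a control siRNA and 2 samples an siRNA that targets CHAF1A, and all were harvested after 48 hours. There is 1 peak list per group, called here the control list and the siRNA list, so the 2 samples of a group cannot be told apart and no difference between the lists has a replicate check. No p-value between the conditions is given for this reason. An siRNA lowers a transcript for a time and in part, and how far CHAF1A itself fell was not measured in these files.

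In CUT&Tag an antibody tethers a transposase to its target, and the cut fragments pile up around it. No library with an untargeted antibody was used here, so a peak below is a site of CUT&Tag signal. A part played by open chromatin in it was not tested. The fold enrichment of a peak is the authors' ratio of the pileup at its highest point (the summit) to the local background. The −log10 q is the authors' measure of how far the pileup stands above that background, and it grows with depth. Counting chromosomes 1 to 22, X and Y only, there were 76313 control peaks and 97653 siRNA peaks. The background over most of the genome, worked out from each peak's fold and p, was 6.34 overlapping reads in the control list and 8.49 in the siRNA list, a ratio of 1.34. A fold enrichment or −log10 q that differs between the lists is therefore not read as a change in binding. Among 6 cholangiocyte markers, a start peak was called at 5 in the control and at 4 in the siRNA list. None was called at 4 hepatocyte markers in either. Over all protein-coding genes, 57.7% (control) and 60.4% (siRNA) had a start peak, so these few genes show little. Such peaks do not measure expression and check no cell type.

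Histone acetyltransferases move an acetyl group from acetyl-CoA to lysines of histone tails, which loosens the hold of histones on DNA and gives bromodomain proteins a mark to bind. CREBBP and EP300 are large paralogous coactivators that acetylate histone H3 at enhancers and promoters. KAT2A and KAT2B belong to the GNAT family and work in the SAGA and ATAC complexes. HAT1, of the same wider family, acetylates newly made histone H4 before chaperones, CAF-1 among them, place it on DNA. KAT5, KAT6A, KAT6B, KAT7 and KAT8 form the MYST family, in which each enzyme has complexes of its own.

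All 10 genes had at least 1 peak in both lists, against 82.3% of protein-coding genes in the control list and 85.0% in the siRNA list. The windows of the 10 genes, 924 kb in all, held 41 control peaks that covered 17.2 kb and 47 siRNA peaks that covered 24.5 kb. That is 0.444 control and 0.508 siRNA peaks per 10 kb, where the windows of all protein-coding genes held 0.342 and 0.434. The median over peaks was near that of all genes. For the peaks of the 10 genes the median −log10 q was 9.5 (control) and 8.76 (siRNA), against 9.93 and 8.68 over all 47701 control and 60485 siRNA peaks in such windows. Their median fold enrichments of 3.54 and 3.14 stood beside 3.68 and 3.14. The strongest peak of each gene gave another picture, with a median −log10 q of 78.7 (control) and 56.7 (siRNA) against 30.8 and 25.1 over all protein-coding genes with a peak. Genes were not matched for length in these comparisons, and a longer window has more room for peaks.

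Of the 41 control peaks, 27 (65.9%, 49.4 to 79.9) overlapped a siRNA peak by at least 1 bp, near the 64.0% of all control peaks in protein-coding windows. Of the 47 siRNA peaks, 25 (53.2%, 38.1 to 67.9) overlapped a control peak, near the 49.4% of all siRNA peaks in such windows. These are 95% exact binomial (Clopper-Pearson) intervals and cover counting error only. Peaks of the acetyltransferase genes were thus shared between the lists about as often as those of other genes.

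**Figure D1:**
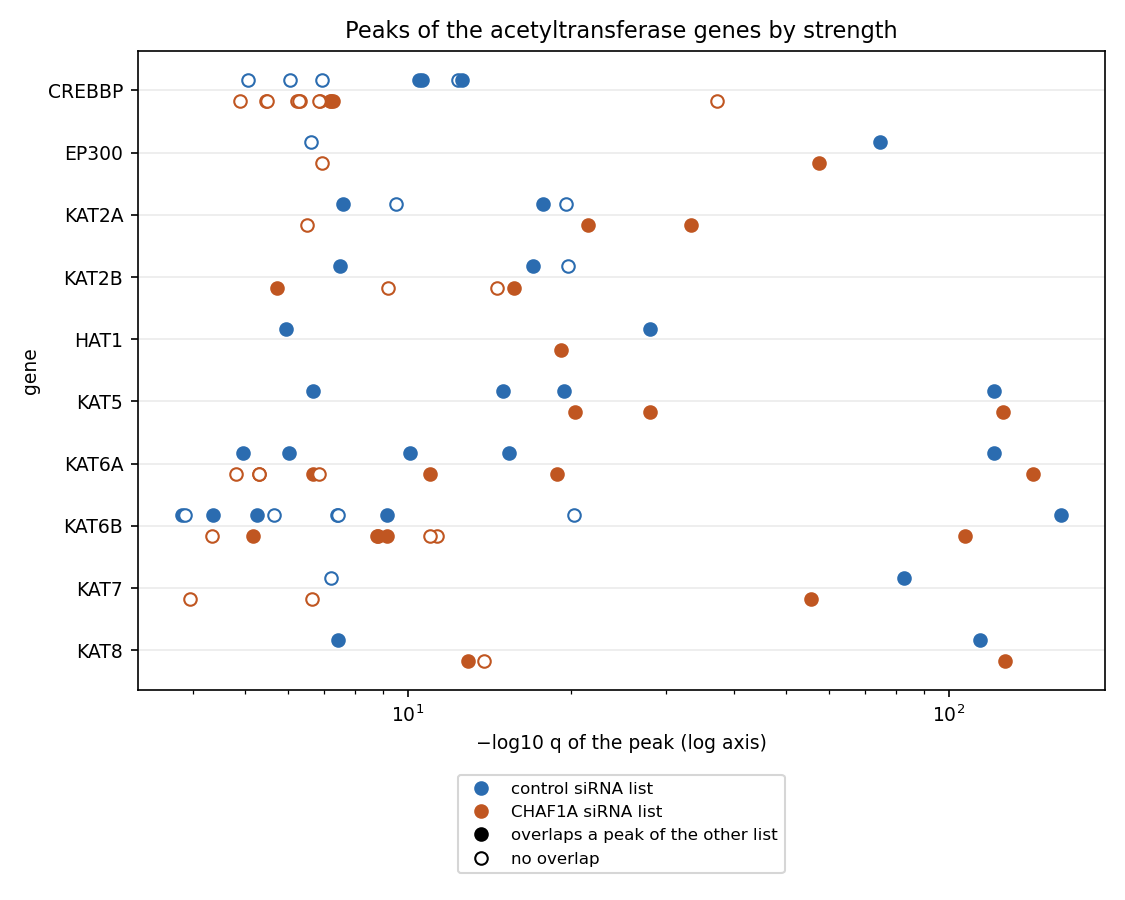
Each point is 1 peak within 5 kb of a gene, by its −log10 q (x axis, logarithmic) and gene (y axis), in blue for the control list and in orange for the siRNA list, filled where it overlaps a peak of the other list. EP300 and the 5 MYST genes each have 1 strong filled point per list, at 55.7 or more, while the open points lie at 20.3 or less with the exception of the CREBBP siRNA peak at 37.2.

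In most of the 10 genes the strongest peak lay at the start. The exceptions were CREBBP and KAT2B in the control list and KAT2A and KAT2B in the siRNA list. A peak was placed at a start when it came within 1 kb of the gene's 5′ boundary. For KAT6A, KAT8 and every other gene whose strand was not given, either boundary counted. Shares and counts over all protein-coding genes, and over the lists described further below, can thus include peaks at 3′ ends. By this measure 8 of 10 genes had a control peak at the start and 10 of 10 a siRNA peak, against 57.7% and 60.4% of protein-coding genes. The 2 genes with a siRNA peak only were CREBBP and KAT2B, where 7.38% of protein-coding genes have that pattern, and no acetyltransferase gene had a control peak only, where 4.70% do. The 11 control peaks at starts had a median −log10 q of 74.7 against 7.46 for the other control peaks. For the siRNA list the 13 peaks at starts had 37.2 against 6.88 elsewhere. The same contrast over all genes is not given here. Taking the strongest start peak of each gene, the median was 98.3 (control) and 56.6 (siRNA). Over all protein-coding genes with a start peak it was 29.4 and 24.8. The lists of complex subunits, other acetyltransferases, deacetylases and readers described further below lay in between. Their medians at the start ran from 49.3 to 55.0 (control) and from 33.3 to 43.3 (siRNA). Start peaks stronger than those of all genes are thus not particular to the 10 genes. At the starts 10 of 11 control and 9 of 13 siRNA peaks were shared, against 86.4% and 79.4% of the start peaks of all protein-coding genes. Inside the genes away from the start, 14 of 25 control and 15 of 32 siRNA peaks were, against 56.9% and 41.7%. Start peaks are thus shared more often than inner ones over all genes too.

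**Figure D2:**
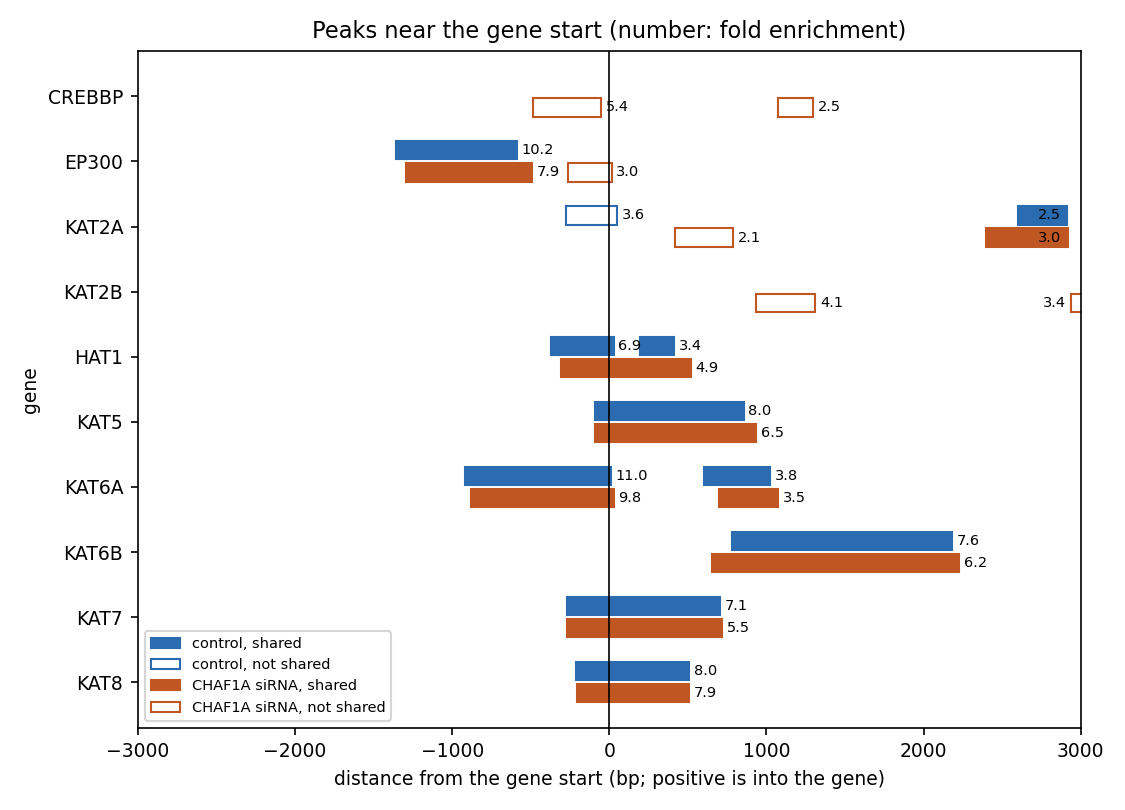
Bars are peaks by distance from the gene start in bp (x axis, positive into the gene) for each gene (y axis), filled where they overlap a peak of the other list, with the fold enrichment beside each. For KAT6A and KAT8 the boundary with the strongest peak stands for the start. HAT1, EP300, KAT2A and the MYST genes have filled bars in both lists. CREBBP and KAT2B have open bars only, and KAT2A and EP300 have open bars beside their filled ones.

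The sequence before 4 starts is shown because the peaks there set the genes apart. A siRNA peak alone reached the bases before CREBBP (197 of 250) and EP300 (all 250). A control peak alone reached those before KAT2A, and peaks of both lists those before HAT1. Of all 35116 windows of 250 bases before a RefSeq start, 4.61% lay under a siRNA peak alone. A control peak alone lay over 3.92% of them and peaks of both lists over 33.1%. Each sequence shown is the RefSeq GRCh38.p14 sequence of the 250 bases before the gene's boundary, 5′ to 3′ on the gene's own strand. CREBBP lies at chr16:3880714-3880963 on the minus strand, EP300 at chr22:41092342-41092591 on the plus strand, KAT2A at chr17:42121368-42121617 on the minus strand and HAT1 at chr2:171922211-171922460 on the plus strand. Capitals mark matches, on either strand, to any of 8 motifs that were searched.
CREBBP: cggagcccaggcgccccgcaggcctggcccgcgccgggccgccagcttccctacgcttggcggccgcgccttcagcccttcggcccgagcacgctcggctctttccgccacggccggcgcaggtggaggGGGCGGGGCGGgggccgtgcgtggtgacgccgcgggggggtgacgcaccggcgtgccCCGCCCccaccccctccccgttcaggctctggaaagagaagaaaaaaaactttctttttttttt
EP300: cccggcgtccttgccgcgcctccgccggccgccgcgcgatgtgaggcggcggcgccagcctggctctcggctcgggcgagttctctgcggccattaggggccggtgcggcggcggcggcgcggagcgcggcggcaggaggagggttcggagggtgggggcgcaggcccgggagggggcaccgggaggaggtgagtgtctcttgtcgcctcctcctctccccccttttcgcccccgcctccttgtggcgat
KAT2A: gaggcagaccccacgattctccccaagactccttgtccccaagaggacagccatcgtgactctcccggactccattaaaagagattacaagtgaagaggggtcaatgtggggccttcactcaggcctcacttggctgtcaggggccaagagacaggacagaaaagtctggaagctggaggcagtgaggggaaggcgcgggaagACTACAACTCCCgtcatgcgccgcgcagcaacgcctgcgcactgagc
HAT1: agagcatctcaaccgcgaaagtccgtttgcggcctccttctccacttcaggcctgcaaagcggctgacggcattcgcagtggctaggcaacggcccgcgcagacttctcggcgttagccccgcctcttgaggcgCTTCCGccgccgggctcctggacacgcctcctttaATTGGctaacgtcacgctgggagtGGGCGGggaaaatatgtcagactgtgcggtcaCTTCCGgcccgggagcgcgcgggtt

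The motifs were the CCAAT box (CCAAT), the GC box (GGGCGG), the cyclic AMP response element (TGACGTCA), the E-box (CACGTG), the ETS core (CGGAAG), the TATA box (TATAAA) and the motifs known by the names of the factors NRF1 and ZNF143. Copies of the GC box may overlap one another. CREBBP held 3 GC boxes, a motif found in 42.6% of the 35116 windows of the same length in the table. HAT1 held 2 ETS cores (16.5% of windows hold at least 1), 1 CCAAT box (32.0%) and 1 GC box. KAT2A held 1 match to the ZNF143 motif, which 1.67% of windows hold, and EP300 held none of the 8. A match is a description of letters and says nothing of binding, and no match says only that these letters are absent from the window.

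The table held 11 such windows for 8 of the genes, 2 of them for CREBBP and 3 for KAT6B, and these were set beside their GC content. The 5 windows under a control peak had a GC content of 56.4% to 66.4%, and the 6 windows under none had 68.0% to 84.0%. The siRNA list had no such division. It covered 6 windows of 56.4% to 76.8%, without KAT2A (58.8%) and the outermost start of KAT6B (68.0%) and with CREBBP at its boundary (72.4%) and EP300 (76.8%). The 3 windows of 80.8% or more, at KAT2B, the second start of CREBBP and a start of KAT6B, lay under no peak of either list. Over all windows of the table the order was not the same. Among windows of 70% to 80% GC, 62.3% lay under a control peak and 62.3% under a siRNA peak, more than the 57.3% and 59.2% among windows of 60% to 70%. At 80% or more these shares were 46.9% and 41.5%. Of all windows of 70% to 80% GC, 5.27% lay under a siRNA peak alone and 5.22% under a control peak alone. A role of base composition in the pattern at the acetyltransferase genes was not tested.

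**Figure D3:**
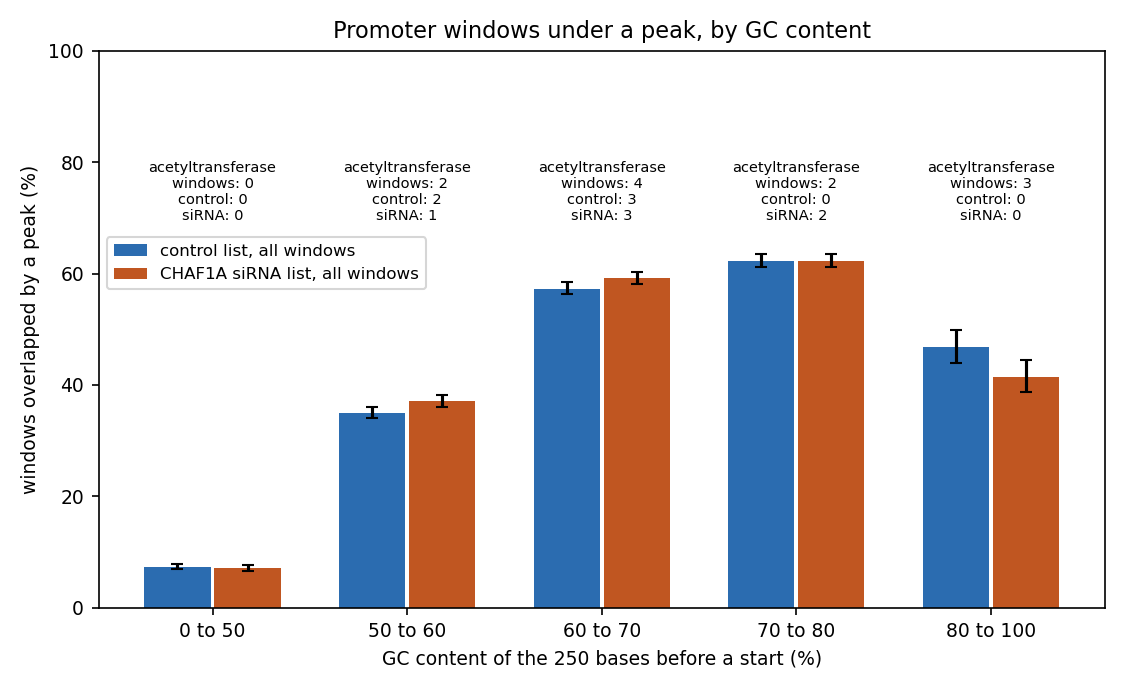
Bars give the percentage of all RefSeq promoter windows (250 bases before a start) that lie under a peak, by GC content in percent (x axis), with 95% exact binomial intervals, for the control list in blue and the siRNA list in orange. The numbers above give the windows of the acetyltransferase genes in each class and how many lie under a peak. At 70% to 80% GC it is 0 of 2 in the control and 2 of 2 in the siRNA list. Of all windows of that class, 5.27% lie under a siRNA peak alone and 5.22% under a control peak alone.

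CREBBP (chromosome 16, 3725054 to 3880713, minus strand) had, by −log10 q, the strongest peak of the 10 genes found in 1 list only. By fold enrichment the control peaks of KAT2B (6.13) and KAT6B (5.93) described below stood above it. The siRNA list had a peak at 3880767 to 3881196, just upstream of the boundary and outside the gene, 430 bp wide, with a fold enrichment of 5.41 and −log10 q of 37.2. Its summit, 223 bp before the start, held 97 reads (95% exact Poisson interval 78.7 to 118, counting error only) over a local background of 17.1. The control list had no peak within 1 kb of the start, and its nearest peak lay 15766 bp away. Scaled to the depth of the control list, the summit would hold 72.5 reads, where 31 pass the p threshold at a background scaled in the same way. The pileup of the control data at this site was not used here. Over all protein-coding genes, 1394 had a siRNA peak at the start with no control peak there and no overlap with one, with a median −log10 q of 7.41. Only KIF11, SV2A and CREBBP among them had 37.2 or more (KIF11 and SV2A are named after their values were seen). In the opposite direction 912 genes had such a control peak, with a median of 8.38, and 17 of them reached that strength. A siRNA peak of this strength at a start is common in itself, with 4333 genes at or above it.

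Away from its start CREBBP carried many peaks, none with a −log10 q above 12.6. The 7 control peaks all lay inside the gene with fold enrichments of 3.05 to 4.32, and the strongest, at 3770419 to 3770781, had a −log10 q of 12.6. The siRNA list had 11 more besides the start peak, and 3 peaks of each list were shared. One control peak without a siRNA counterpart exceeded a −log10 q of 10, at 3744374 to 3744642, with a fold enrichment of 4.03 and −log10 q of 12.4. Of the 10 genes CREBBP had the most siRNA peaks without a counterpart, 9, and it had 4 such control peaks where KAT6B had 5. These 2 genes also had the longest windows, 166 kb and 218 kb. Peaks without a counterpart are common in all genes. In all protein-coding windows, 64.0% of control and 49.4% of siRNA peaks were shared. Inside genes away from the start, 56.9% and 41.7% were.

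EP300 (chromosome 22, 41092592 to 41180077, plus strand), the paralogue of CREBBP, kept its main peak in both lists. It lay upstream of the gene at 41091235 to 41092003 in the control list, with a fold enrichment of 10.19, −log10 q of 74.7 and 117 reads at the summit. The siRNA peak at 41091297 to 41092101 had a fold enrichment of 7.91, −log10 q of 57.6 and 108 reads. The summits were 937 and 939 bp before the start. A second siRNA peak lay over the start itself, at 41092329 to 41092606, and covered all 250 bases shown above and the microRNA gene MIR1281. It was weak, with a fold enrichment of 2.97 and −log10 q of 6.94, and it overlapped no control peak. Inside the gene the control list had 1 weak peak 24937 bp past the start (fold enrichment 3.68), and the siRNA list had none. The 2 paralogues thus differed in layout, with 2 peaks per list in the 97.5 kb window of EP300 and 7 and 12 in that of CREBBP.

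**Figure D4:**
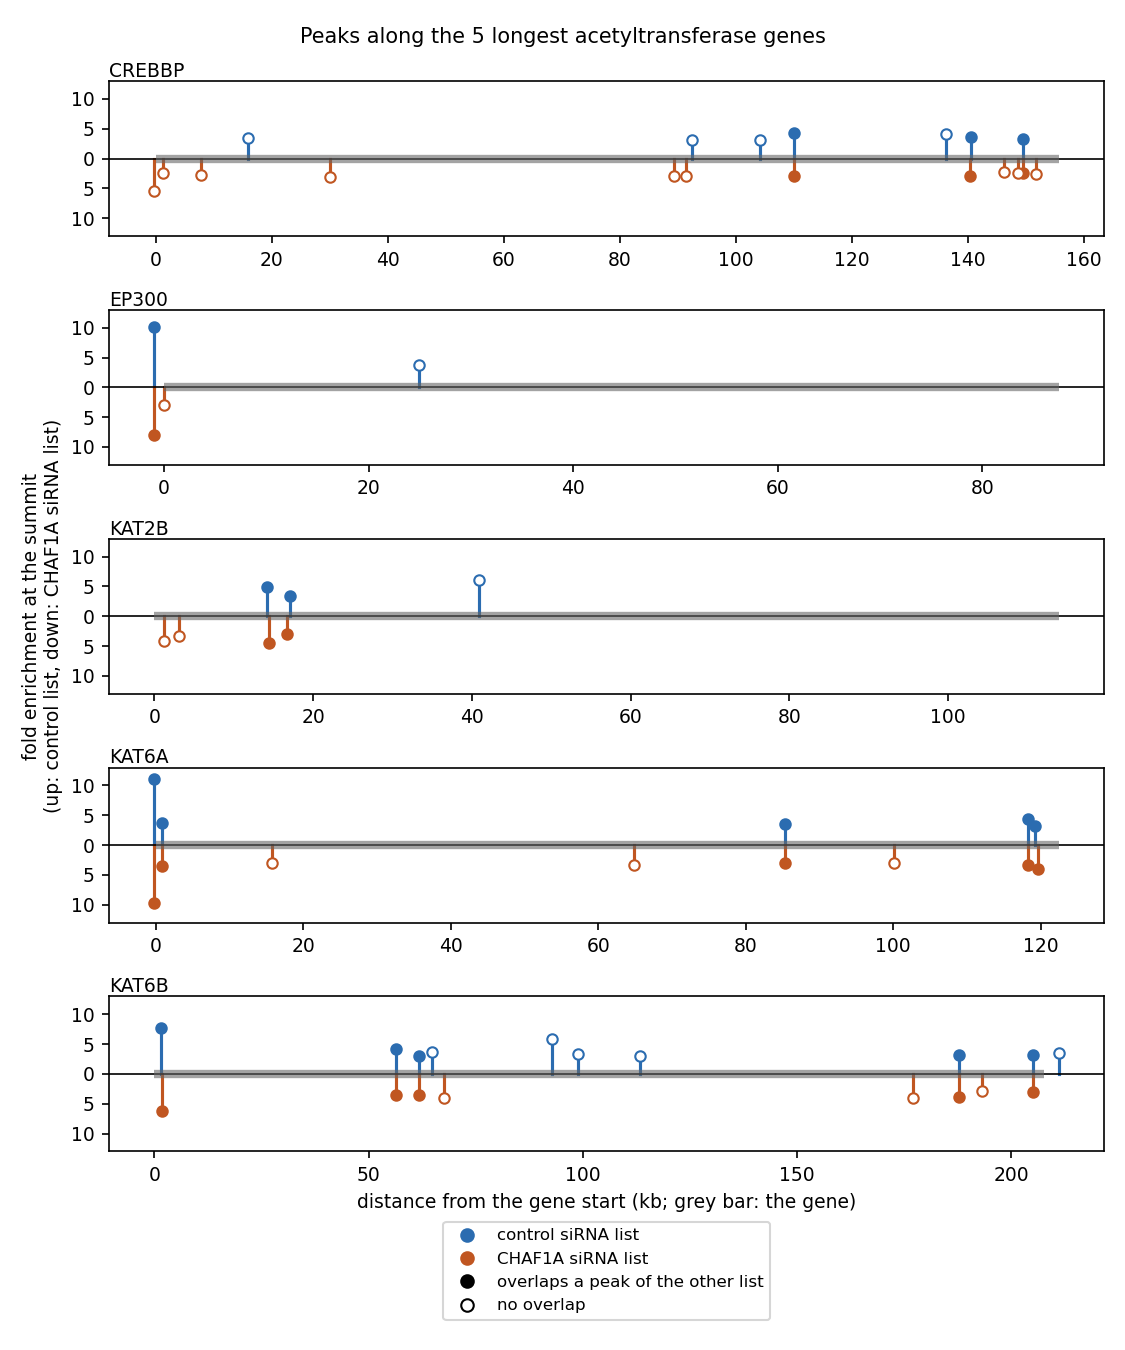
Each stem is a peak summit by its distance from the gene start in kb (x axis, grey bar the gene) and its fold enrichment (y axis), upward for the control list and downward for the siRNA list, filled where the peak overlaps one of the other list. KAT6A shows 5 filled stems in each list, while most stems of CREBBP are open, with its start peak of 5.41 in the siRNA list only.

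The start peaks of the GNAT genes had −log10 q of 28.0 or less. KAT2A (chromosome 17, 42113111 to 42121367, minus strand), also known as GCN5, had a control peak across its start at 42121318 to 42121644. It had a fold enrichment of 3.59, −log10 q of 19.6 and a summit of 82 reads 14 bp before the start. No siRNA peak overlapped it, and the nearest lay 369 bp away inside the gene at 42120579 to 42120949, with a fold enrichment of 2.11 and −log10 q of 6.5. KAT2A thus counts as having a start peak in both lists although the sites differ. Near its 3′ end lay broader peaks in both lists, 1073 bp wide in the control list (fold enrichment 3.33) and 1607 bp wide in the siRNA list (3.51, −log10 q 33.3). These reach into the neighbouring gene DHX58, and the gene they belong to cannot be told apart. A shared peak inside the gene had 2.49 in the control list and 3.03 in the siRNA list. A further control peak, at 42108137 to 42108309, lay wholly within DHX58.

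KAT2B (chromosome 3, 20040446 to 20154404, plus strand), the paralogue known as PCAF, had no control peak at its start. The siRNA peak at 20041380 to 20041757 began 934 bp past the start, with a fold enrichment of 4.11 and −log10 q of 14.6, so it lay close to the limit of the 1 kb window. At 500 bp the gene had no start peak in either list. Its inner control peaks with summits 14226 and 17074 bp past the start were shared. The first of them had fold enrichments of 4.82 (control) and 4.5 (siRNA). The strongest control peak of the gene was in the control list only. It lay at 20081255 to 20081629, with a fold enrichment of 6.13, −log10 q of 19.8 and 44 reads over a background of 6.34, and the nearest siRNA peak was 23868 bp away. Scaled to the depth of the siRNA list, that summit would hold 58.9 reads, where 23 pass the threshold.

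HAT1 (chromosome 2, 171922461 to 171983686, plus strand), the enzyme of new histone H4, had peaks at its start and nowhere else in its 71.2 kb window. The control list had 2, at 171922089 to 171922489 with a fold enrichment of 6.89 and −log10 q of 28.0, and at 171922658 to 171922873 with 3.36 and 5.96. A single siRNA peak of 825 bp, at 171922155 to 171922979, joined both sites with a fold enrichment of 4.88 and −log10 q of 19.2. The summits of the stronger control peak and of the siRNA peak held 57 and 55 reads. The lncRNA gene LOC105373740 starts within 1 kb on the other strand, and the gene these peaks belong to cannot be told apart.

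All 5 MYST genes had a strong start peak in both lists. Their strongest start peaks had −log10 q of 82.7 to 161 in the control list and of 55.7 to 143 in the siRNA list. Each stood above that of at least 82.4% of the 11566 genes with a control start peak and of at least 76.1% of the 12103 with a siRNA one. HAT1 stood above 48.3% and 41.0% by the same measure, KAT2A above 35.6% and 7.16%, and EP300 above 80.0% and 77.1%. KAT2B and CREBBP, in the siRNA list alone, stood above 31.7% and 64.2%.

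KAT5 (chromosome 11, 65712018 to 65719604, plus strand) encodes TIP60, the enzyme of the NuA4 complex. Its start peak began at 65711927 in both lists and ended at 65712872 in the control and at 65712952 in the siRNA list, with the summit at 65712649 in both. The fold enrichments were 8.01 and 6.48, with 228 and 283 reads at the summit over backgrounds of 27.6 and 42.8. All 4 control and all 3 siRNA peaks of KAT5 were shared. Those at its 3′ end overlap RNASEH2C, a subunit gene of a ribonuclease that starts there on the other strand. There 2 control peaks, at 65719928 to 65720231 and 65720472 to 65720906, faced 1 siRNA peak of 943 bp. KAT5 had the highest share of its window under peaks, 13.3% (control) and 17.0% (siRNA), in a window of 17.6 kb.

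KAT8 (chromosome 16, 31117664 to 31131393), or MOF, which acetylates histone H4, had the closest match in fold enrichment at its start. The control peak at 31117449 to 31118172 had 8.02 and the siRNA peak at 31117456 to 31118172 had 7.91, with the summit at 31117912 in both and 215 and 243 reads. The gene BCKDK ends under these peaks. At the other boundary a shared peak overlapped the neighbouring gene PRSS8, with a fold enrichment of 2.43 (control) and 2.62 (siRNA). It is counted among the start peaks because the strand of KAT8 was not given. A siRNA peak without counterpart at 31135383 to 31135785, with a fold enrichment of 2.67 and −log10 q of 13.8, lay past the gene across the far boundary of PRSS8.

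KAT6A and KAT6B are paralogues that act in complexes with the scaffold BRPF1. KAT6A (chromosome 8, 41929479 to 42051987) had the highest fold enrichment of the 10 genes, 11.04 at 42051976 to 42052903 in the control list and 9.8 at 42051960 to 42052866 in the siRNA list. The summits were 6 bp apart and held 182 and 235 reads. A second shared peak 825 bp into the gene had 3.78 and 3.48, with the same summit in both lists. All 5 control peaks of KAT6A were shared, and 3 weak siRNA peaks inside it, of 2.95 to 3.37, were not. The antisense transcript KAT6A-AS1 overlaps the start peak.

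KAT6B (chromosome 10, 74824936 to 75032624, plus strand) had the highest control −log10 q and the broadest control peak of the 10 genes. This peak spanned 1400 bp at 74825715 to 74827114, with a fold enrichment of 7.62, −log10 q of 161 and 317 reads, and lay inside the gene from 779 bp past the boundary. The siRNA peak at 74825588 to 74827164 spanned 1577 bp with 6.23, 107 and 247 reads, and its summit stood 254 bp further into the gene. Of the 3 starts of KAT6B in the table, the control and siRNA peaks covered the window before the innermost, at 74826600, and not those before 74825255 and 74825479. The long gene body held 8 more control peaks and 7 more siRNA peaks. The strongest of them in the control list, at 74917524 to 74917745 (fold enrichment 5.93, −log10 q 20.3, 47 reads), overlapped no siRNA peak, and the nearest was 24767 bp away. In the siRNA list those at 74892065 to 74892757 and 75001855 to 75002167, with 4.05 and 4.11, overlapped no control peak.

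KAT7 (chromosome 17, 49788681 to 49835026, plus strand), or HBO1, an enzyme of histone H3 and H4 linked to replication origins, had a start peak with the same first base, 49788409, in both lists. Its fold enrichment was 7.09 (control) and 5.45 (siRNA), with 171 and 145 reads. The summits were 237 bp apart, at 579 and 342 bp past the start. FAM117A starts under the same peak on the other strand. The remaining peaks, 1 control and 2 siRNA, were weak and not shared.

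Across the 27 shared control peaks, the summit of the strongest overlapping siRNA peak lay a median of 43 bp away and at most 509 bp, and within 20 bp in 10 of them. Peaks without a counterpart numbered 14 (control) and 22 (siRNA). Of these, 10 and 17 had a −log10 q under 10, with fold enrichments of 2.76 to 3.7 and of 2.11 to 3.38. Such values are usual, since the median −log10 q over all peaks was 9.82 (control) and 8.5 (siRNA). Within the 10 genes the median was 7.3 and 6.76 for peaks without a counterpart, against 10.6 and 15.7 for shared ones. The same medians over all genes are not given here, so this contrast is not read as particular to the 10 genes. Of the siRNA peaks without a counterpart, 21 of 22 still passed the authors' threshold when pileup and background were scaled to the control depth, as did 95.6% of all siRNA peaks. Scaled pileups were not rounded to whole reads. At 1 of the 21, in KAT6B, the summit would hold 19.4 reads, where 20 is the lowest whole count that passes. The scaling does not say whether the siRNA peaks without a counterpart would be called again in another sample.

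Genes that work with or against these enzymes were set beside them as a description. Their counts stand beside the 57.7% (control) and 60.4% (siRNA) of all protein-coding genes with a start peak, and the 4.70% with a control and 7.38% with a siRNA one alone. Of 51 genes for subunits of acetyltransferase complexes, 46 (90.2%) had a control peak at the start and 48 (94.1%) a siRNA peak, with 45 in both. USP22 and ZZZ3, of SAGA and ATAC, and MBTD1, of NuA4, had the highest control −log10 q, at 405, 333 and 319. Only a control peak was called at DMAP1 (fold enrichment 4.41), while YEATS2 (3.61), ATXN7 (2.85) and WDR5 (2.07) had a siRNA peak only. Of 17 other genes with reported acetyltransferase activity, 13 had a control and 14 a siRNA peak, led by NAA10, ATF2 and TAF1 at 456, 359 and 99.1 in the control list, and ESCO2 had a siRNA peak only (2.87).

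Of 18 histone deacetylase and sirtuin genes, which remove the mark, 16 had a control and 15 a siRNA peak at the start. HDAC6, SIRT2 and SIRT4 led with control −log10 q of 638, 129 and 98.2, and at HDAC8 only a control peak was called, of fold enrichment 3.54. Of 26 genes for readers of acetylated lysine, 18 had a control and 20 a siRNA peak, with BAZ2B, ATAD2 and TRIM24 in front at 620, 389 and 183. MLLT3 had a control peak only (4.22). YEATS2 and BRD9 (3.64) were among those with a siRNA peak only, that of BRD9 overlapping a control peak outside the 1 kb window. None of the genes in these 4 lists with a start peak in the siRNA list only reached the −log10 q of CREBBP: the highest was BRD9 at 12.4.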

How the data were processed

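CUT&Tag of CHAF1A was deposited as 2 MACS2 peak lists, and their names, NC and si, were read as control siRNA and CHAF1A siRNA because they resemble parts of the titles. Pooling of samples and use of a background library are not given in the sources used here. MACS2 2.1.2, Bowtie2 2.2.5, deepTools 3.4.3, fastp 0.20.1 and hg38 are named, without their roles, in the submitters' processing notes. Fold enrichment is deposited as a linear ratio, and p and q as −log10 values. The deposited score was 10 times −log10 p to within 1 and was not used. The lowest deposited −log10 p was 5.0 in each list. Positions count from 1.

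Peaks on other sequences (868 control, 886 siRNA) were left out. Fold, (pileup + 1)/(background + 1), and p, a Poisson tail, were solved for pileup and background where −log10 p was under 290. This gave 99.1% and 99.2% of peaks, nearly all with pileups whole within 0.02 reads. Solving and overlaps were checked on simulated data. Genes, strands and promoters came from RefSeq tables of GRCh38.p14: 8 of the 10 genes matched a promoter, and the 4 comparison lists matched in full. Read totals were not used here.

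The genes, lists and settings were chosen with earlier results of these data known, and the split by GC content after its values were seen. Named were all 10 genes, the strongest peaks, unshared peaks with −log10 q of 10 or more, and, per comparison list, the 3 strongest control genes and up to 4 genes in 1 list only, except 1 gene that is not reported here. Alternatives were margins of 0, 1 and 10 kb, start windows of 500 bp and 2 kb, −log10 q of at least 5 and 10, equal list lengths, siRNA depth scaled to the control background, 50% reciprocal overlap and summit overlap. The computations ran in Python 3.11.15 with scipy 1.17.1, pandas 2.3.3, numpy 2.4.6 and, for plots, matplotlib 3.10.9.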

Additional observations from a re-analysis of the deposited data

How the results depend on the processing

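No paired analysis was possible because each group has 1 peak list, in which its 2 samples cannot be told apart. For the same reason no sample could be left out. Of 58 values recomputed under the alternatives, 54 stayed within 1.5 times the reported count or inside the interval of the reported share. Some could not move, since equal list lengths and the scaling of the siRNA list leave the control counts as they are. The limit of 1.5 times also let pass a fall from 8 to 6 genes with a control start peak at 500 bp. With −log10 q of at least 10, 20 control and 20 siRNA peaks were left in place of 41 and 47, since weaker peaks were dropped. With 50% reciprocal overlap, 41.5% of control and 36.2% of siRNA peaks were shared in place of 65.9% and 53.2%, and the cause was not tested. When the siRNA list was shortened to the length of the control list, its excess turned, with 37 siRNA against 41 control peaks. CREBBP kept its siRNA start peak under every alternative tried. No alternative could have given it a control one. The nearest control peak lay 15766 bp away, and no start window exceeded 2 kb. KAT2B lost its siRNA start peak with a start window of 500 bp, and KAT2A with −log10 q of at least 10. Within 500 bp, EP300 had a start peak in the siRNA list only and KAT6B in neither. The depth of each list, in reads, was not used here, so sites absent from a list may lie under its threshold.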
